A study of Mus musculus with 32 samples.

Results

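The 10 genes described here encode 5 thrombospondins (Thbs1, Thbs2, Thbs3, Thbs4 and Comp) and 5 further matricellular proteins (Postn, Tnc, Sparc, Sparcl1 and Spp1). They were chosen by gene name, with earlier results of these data known. Each was found once in both deposited count tables, and they are 10 of 23284 genes. RNA was sequenced from brachiocephalic arteries (labelled BCA) bearing atherosclerotic lesions and from cultured aortic smooth muscle cells of C57BL/6 mice. The arteries came from 4 Oct4 -/- (KO) and 4 wild-type (WT) animals, all fed a Western diet for 18 weeks, and the labels list smooth muscle, epithelial and macrophage cells among their mixture. The cultures were 1 primary line per genotype, WT or Oct4 -/-, given vehicle or POVPC (an oxidised phospholipid found in atherosclerotic lesions) in normoxia or in hypoxia at 1% O2, with 3 libraries in each of the 8 groups. The labels give the genotype as Oct4 -/- only, so the Cre driver, further alleles, the cells that lost the gene, age, POVPC dose and exposure times are not described here. In culture, genotype and line cannot be told apart, and p-values there measure only the spread between triplicates of 1 line.

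Matricellular proteins are secreted into the matrix but act mainly by binding receptors, growth factors, proteases and structural matrix rather than by bearing load. Thrombospondin 1 and 2 are trimers that bind CD36 through their type 1 repeats and restrain angiogenesis, and thrombospondin 1 can activate latent TGF-beta. Thrombospondin 3, thrombospondin 4 and cartilage oligomeric matrix protein (Comp) are pentamers without type 1 repeats. In arteries, osteopontin (Spp1), tenascin C (Tnc) and periostin (Postn) are known as proteins of injured or remodelling wall, and osteopontin is made by both smooth muscle cells and lesion macrophages.

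In mm9, the build of the deposited files, the genes lie at Thbs1 chr2:117937658-117952869, Thbs2 chr17:14802507-14831269, Thbs3 chr3:89019109-89030759, Thbs4 chr13:93521541-93564773, Comp chr8:72897447-72905965, Postn chr3:54165029-54194963, Tnc chr4:63620819-63708049, Sparc chr11:55208003-55233582, Sparcl1 chr5:104508128-104543107 and Spp1 chr5:104864130-104870072. Their summed exon lengths run from 1658 bases (Spp1) to 7100 bases (Tnc), and no exon of another gene in the annotation overlaps theirs. The RefSeq promoter table (GRCm38.p6) holds 10 windows for 7 of the 10 members; Thbs1, Comp and Sparcl1 are not among them. The 250 bases before the annotated start are printed for Thbs2 and Postn, which were both higher in KO cells and lower in hypoxia, and for Spp1, which was higher in hypoxia. Capitals mark CAGAC (SMAD), read on either strand, so that a site on the opposite strand appears as GTCTG. Postn, Tnc and Spp1 have 2 windows each in the table. No capitals stand in the Postn stretch printed, while the other Postn window holds 1 CAGAC, 191 bases before its start.
Thbs2, chr17:14694263-14694512, minus strand: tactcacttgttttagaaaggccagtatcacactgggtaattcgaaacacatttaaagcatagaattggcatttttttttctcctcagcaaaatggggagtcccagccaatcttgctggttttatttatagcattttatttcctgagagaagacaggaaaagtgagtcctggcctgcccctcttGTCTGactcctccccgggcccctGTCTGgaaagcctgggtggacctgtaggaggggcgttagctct
Postn, chr3:54360857-54361106, plus strand: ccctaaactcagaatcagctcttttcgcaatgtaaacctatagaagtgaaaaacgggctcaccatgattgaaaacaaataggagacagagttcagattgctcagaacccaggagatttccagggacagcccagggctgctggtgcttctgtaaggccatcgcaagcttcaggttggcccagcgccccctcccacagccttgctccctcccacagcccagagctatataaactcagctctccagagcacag
Spp1, chr5:104434861-104435110, plus strand: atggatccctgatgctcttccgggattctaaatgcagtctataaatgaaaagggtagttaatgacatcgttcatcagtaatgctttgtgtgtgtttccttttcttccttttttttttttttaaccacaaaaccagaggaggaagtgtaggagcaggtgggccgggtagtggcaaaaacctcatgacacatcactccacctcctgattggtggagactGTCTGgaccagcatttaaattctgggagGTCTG
CAGAC was found in 7 of the 10 member windows, against 42.2% of all 32851 windows of the table. The Thbs2 stretch holds 2 of these sites, starting 66 and 43 bases before the gene start, and the Spp1 stretch holds 2, at 33 and 5 bases. The hypoxia response core (ACGTG or GCGTG, both strands) was found in 1 of the 10 windows, that of Thbs4, against 38.6% of all windows. The TEAD core (GGAATG, both strands) was found in the same Thbs4 window alone, where its 2 sites share 1 base, against 12.6% of all windows. The AP-1 site (TGAGTCA or TGACTCA, both strands) was in 0 of the 10 windows, against 4.46% of all. A match describes letters only, and these windows cover a small part of its regulatory sequence.

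Lesion libraries held 6526099 to 11137414 counts and culture libraries 8063121 to 30231799, the latter counted as separate mates. Pou5f1, the gene of Oct4, reached at most 0.394 counts-per-million (CPM) in any lesion library and 0.102 CPM in any culture library, in KO and WT alike, so it does not check the genotype labels. Of the smooth muscle markers, Acta2 was at 263 ± 25.7 CPM (SD, n = 3) in WT vehicle normoxia and 58.3 ± 3.57 CPM in KO vehicle normoxia. Myh11 was at 5.15 ± 0.395 and 0.243 ± 0.243 CPM in the same groups, against 2783 ± 364 CPM (n = 4) in WT arteries, so the defining contractile marker was nearly absent from the cultures. Among the arteries, KO 4 (2.41%) and WT 1 (2.96%) had the largest share of reads on Rn45s, the ribosomal precursor, against 1.07 to 1.74% in the other 6. In culture, 3 hypoxia libraries were the shallowest, WT POVPC 1 and 2 and KO vehicle 3. They had 5.79, 9.24 and 8.07 multimapping alignments per assigned alignment, against at most 3.88 elsewhere. Leaving these 3 out leaves 1 library, replicate 3, in WT POVPC hypoxia, which is then assumed to vary like the other groups. KO vehicle normoxia 3 also stood apart, with 8.02% of reads on Rn45s, against 1.59 and 1.29% in the other two of its group.

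Per kilobase of exon, which allows genes to be compared, Sparc and Thbs1 made up most of the summed level of the 10 genes in nearly every culture group. Sparc, a collagen-binding glycoprotein also called osteonectin, took a mean of 46.2% (KO POVPC hypoxia) to 83.8% (WT POVPC normoxia) of the summed CPM per kb. Thbs1 took from 9.72% in KO vehicle normoxia to 45.8% in WT vehicle hypoxia. In the 2 KO normoxia groups Thbs2 came second, with 20.1% under vehicle and 19.8% under POVPC, where WT cells had 0.484% and 0.0571%. Lesions had another make-up. Spp1 led there, with 66.4% in KO and 44.3% in WT, while its share in culture was 0.230 to 6.06%. Sparcl1, a relative of Sparc, took 5.41% in WT arteries and was nearly unread in culture.

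**Figure D1:**
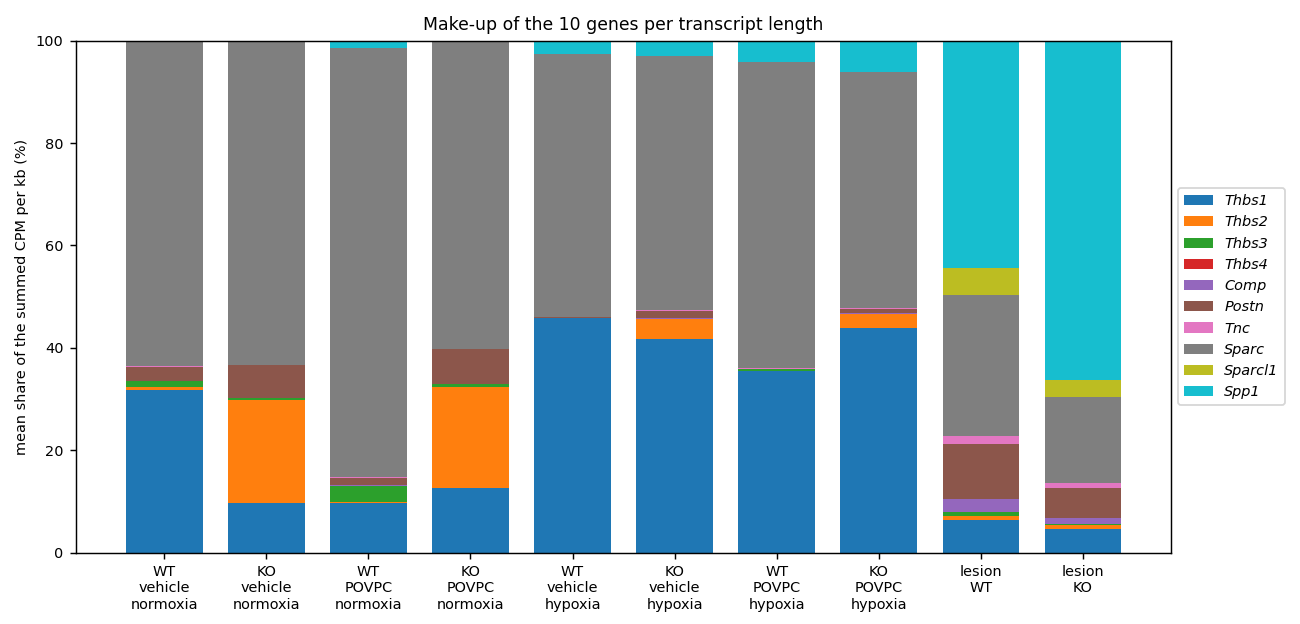
Stacked bars give, for the 8 culture groups (3 libraries each) and the lesion groups (4 each), the mean share (%) of each gene in the summed CPM per kb of the 10 genes. Sparc and Thbs1 fill most of the culture bars, Thbs2 is second in size to Sparc in the KO normoxia bars (20.1% and 19.8%), and Spp1 leads in the lesions.

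All comparisons used edgeR's quasi-likelihood test with Benjamini-Hochberg adjustment over all tested genes, and a gene was called at an adjusted p (FDR) under 0.05. Fold changes are log2 with their standard error, on counts scaled by TMM, and those of culture given without an FDR passed the threshold. In culture 8 of the 10 members passed the filter on low counts. Thbs4 had at most 3 counts and Sparcl1 at most 4 in any of the 24 culture libraries, with 0 counts in 19 and 16 of them. A count of 0 allows up to 3 counts, or 0.0954 to 0.410 CPM depending on the library, for counting error only and with counts taken as independent. Culture mates were counted apart, so a fragment can be counted more than once and the true limit lies higher. Neither gene is compared in culture.

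Between the lines, Thbs2 and Postn were higher and Thbs3 lower in KO cells in each of the 4 conditions. Thbs1, Tnc, Spp1, Sparc and Comp differed in direction or call from condition to condition. Of the 8 tested members, 6 were called in vehicle normoxia (2 higher and 4 lower in KO), where 60.6% of 14496 tested genes were called. In POVPC normoxia 5 were called (3 higher, 2 lower; background 60.2%). In vehicle hypoxia 7 were called (3 higher, 4 lower; background 59.9%), and in POVPC hypoxia 5 (3 higher, 2 lower; background 57.6%). With most tested genes called between the lines, these counts by themselves do not set the members apart.

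Under hypoxia Thbs2, Thbs3, Postn and Sparc fell and Spp1 rose in both lines, with vehicle and with POVPC. The members called numbered 7 of 8 in WT vehicle (1 higher, 6 lower), against 68.1% of all tested genes, and 8 of 8 in WT POVPC (2 higher, 6 lower), against 66.1%. In KO cells they numbered 6 of 8 with vehicle (2 higher, 4 lower; background 65.4%) and 7 of 8 with POVPC (2 higher, 5 lower; background 68.5%). The median log2 change of the 8 members was -2.36 in WT vehicle and -0.86 in KO vehicle, where the median of all tested genes was -0.032 and 0.015. With about as many of all genes called as of the members, it is the direction and size that these values describe.

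POVPC moved most members in WT cells and few in KO cells. The members were chosen with earlier results of these data known, so their counts beside the background are a description only. In WT normoxia 7 of 8 were called (2 higher, 5 lower), against 26.9% of all tested genes. In WT hypoxia 5 of 8 were called (1 higher, 4 lower; background 21%). In KO normoxia 0 of 8 were called by edgeR (background 0.0414%, 6 genes, which became 310 without KO vehicle normoxia 3), 1 member, Tnc, had an unadjusted p under 0.05, and DESeq2 called 0, giving no adjusted p for 3 of the 10 members. In KO hypoxia 3 of 8 were called (1 higher, 2 lower; background 4.06%).

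**Figure D2:**
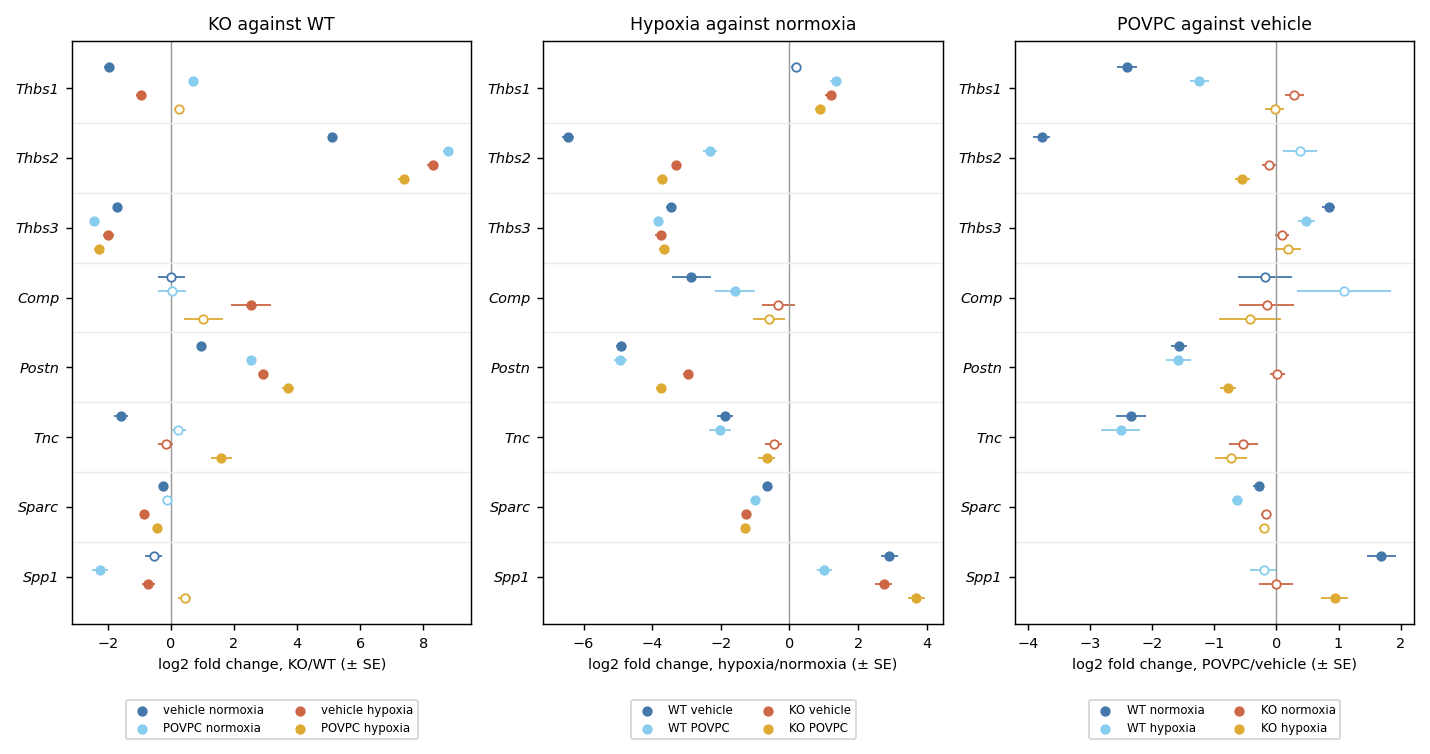
Log2 fold changes (points) with standard errors (bars) of the 8 members tested in culture, for KO against WT, hypoxia against normoxia and POVPC against vehicle, with 4 comparisons each by colour. Filled points passed an FDR of 0.05 and open points did not; Thbs2 and Postn lie right of 0 in the left panel and left of 0 in the middle one, and the KO normoxia points in the right panel are all open.

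Thbs2 had the widest span of the members. Its CPM in normoxia with vehicle were 55.1, 54.8 and 51.9 in the 3 WT libraries and 1845, 1869 and 1912 in the 3 KO libraries. The groups were far apart, with a log2 difference of 5.12 ± 0.14 (FDR 1.71e-20), or 34.8-fold. With POVPC in normoxia WT cells dropped to 4.84, 3.77 and 3.17 CPM, a change of -3.77 ± 0.14, whereas KO cells had 1826, 1768 and 1612 CPM (-0.11 ± 0.12, FDR 0.791). Hypoxia brought WT cells close to the detection limit: the vehicle libraries had 16, 14 and 16 counts (0.542 to 0.769 CPM) and the POVPC libraries 5, 6 and 26 counts (0.378 to 1.02 CPM). KO cells in hypoxia kept 173, 199.8 and 202 CPM with vehicle and 152, 123 and 118 CPM with POVPC, above every WT library of any condition. The fall under hypoxia was -6.46 ± 0.18 in WT vehicle, -2.31 ± 0.21 in WT POVPC, -3.29 ± 0.13 in KO vehicle and -3.73 ± 0.13 in KO POVPC. Between the lines, the log2 difference was 8.78 ± 0.17 in POVPC normoxia, 8.29 ± 0.18 in vehicle hypoxia and 7.37 ± 0.18 in POVPC hypoxia. In KO hypoxia POVPC lowered Thbs2 further (-0.55 ± 0.12, FDR 0.00656), a call that was lost without KO POVPC hypoxia 3 (FDR 0.0609). All 8 group means but the lowest pair, the WT hypoxia groups, were separated by non-overlapping libraries.

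Thbs1, the activator of latent TGF-beta, followed another order. Its CPM were 3578, 3470.5 and 3392 in WT vehicle normoxia and 690.3, 908 and 1062 in KO vehicle normoxia, a difference of -1.97 ± 0.16 (FDR 8.44e-10). POVPC brought the WT values to 809, 570.3 and 601 CPM (-2.4 ± 0.16), below the KO POVPC values of 1133, 1055 and 1058 CPM, so the line with the higher level changed (0.71 ± 0.15). In hypoxia WT vehicle had 4081, 3253 and 4543 CPM and overlapped its normoxia group (0.19 ± 0.15, FDR 0.293). The other hypoxia groups were above their normoxia counterparts: WT POVPC had 1649, 1500.2 and 1882 CPM (1.35 ± 0.16), KO vehicle 2156, 2119 and 1824 CPM (1.20 ± 0.16) and KO POVPC 2359.7, 1753 and 1887 CPM (0.89 ± 0.15). Thbs1 thus was the thrombospondin that rose under hypoxia in 3 of the 4 settings where Thbs2 and Thbs3 fell. In hypoxia the difference between the lines was -0.96 ± 0.15 with vehicle and 0.25 ± 0.15 with POVPC (FDR 0.167).

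Set side by side per kb, Thbs1 stood at 64.6 to 66.7 times Thbs2 in WT vehicle normoxia and at 0.382 to 0.567 times in KO vehicle normoxia. With POVPC in normoxia the ratio was 155 to 194 in WT and 0.609 to 0.670 in KO. In hypoxia it was 4319 to 8563 in WT vehicle, on 14 to 16 Thbs2 counts a library, and 9.23 to 12.7 in KO vehicle. In the KO normoxia groups alone, of all 10 groups, was Thbs2 above Thbs1. Lesions lay between, at 6.71 to 8.90 in KO and 5.77 to 7.99 in WT arteries, which overlap.

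Among the pentameric thrombospondins, Thbs3 was the one read at useful depth in culture, except in KO hypoxia. Libraries there held 19 to 36 counts with vehicle and 28 to 47 with POVPC. Thbs3 stood at 69.4, 62.1 and 71.3 CPM in WT vehicle normoxia and 19.2, 20.6 and 22.3 CPM in KO (-1.71 ± 0.11, FDR 8.23e-14). POVPC raised it in WT normoxia to 117, 121 and 124 CPM (0.84 ± 0.11), above every other culture library, while KO cells had 20.98, 23.5 and 21.9 CPM (0.094 ± 0.11, FDR 0.819). Hypoxia reduced it 11.03-fold in WT vehicle, to 5.95, 5.16 and 7.07 CPM, and 13.5-fold in KO vehicle, to 1.52, 1.33 and 1.94 CPM. The log2 changes under hypoxia were close to each other in all 4 settings: -3.46 ± 0.12 in WT vehicle, -3.82 ± 0.13 in WT POVPC, -3.75 ± 0.16 in KO vehicle and -3.66 ± 0.15 in KO POVPC. Neither difference between the lines in this response was called (-0.29 ± 0.21, FDR 0.297 with vehicle and 0.16 ± 0.21, FDR 0.6001 with POVPC). In the other 3 conditions KO was lower than WT, with log2 differences of -2.45 ± 0.11 (POVPC normoxia), -1.99 ± 0.17 (vehicle hypoxia) and -2.29 ± 0.16 (POVPC hypoxia). A rise with POVPC in WT hypoxia (0.48 ± 0.14, FDR 0.0118), where the groups overlapped, lost its call without the 3 shallowest libraries (0.52, on 1 POVPC library), without each of WT vehicle hypoxia 2 and WT POVPC hypoxia 2 and 3, and with the 2 groups fitted alone (FDR 0.0527 to 0.0872).

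Comp, the pentamer of cartilage and tendon that arterial smooth muscle can also make, was near the limit of detection in culture, with at most 29 counts in a library. Normoxia libraries held 12 to 29 counts in both lines. WT hypoxia libraries held 2, 0 and 6 counts with vehicle and 2, 0 and 9 with POVPC, and KO hypoxia libraries 14, 10 and 9 and 15, 10 and 7. The WT vehicle fall under hypoxia was called (-2.86 ± 0.58, FDR 7.76e-05), as was the difference between the lines in vehicle hypoxia (2.54 ± 0.63, FDR 9.05e-04). The former ranged from -4.04 to -2.46 as 1 library at a time was left out, and the latter from 2.14 to 3.73. The value in WT POVPC (-1.58 ± 0.58, FDR 0.0191) lost its call without the 3 shallowest libraries, on 1 hypoxia library with 9 counts (-0.93, FDR 0.242) and without each of WT POVPC normoxia 2 and WT POVPC hypoxia 1 and 2, and was -2.77 without WT POVPC hypoxia 3. In normoxia the lines differed by 0.0079 ± 0.43 with vehicle (FDR 0.990) and 0.039 ± 0.44 with POVPC (FDR 0.949), on overlapping groups.

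Postn, which promotes collagen crosslinking, shared the direction of Thbs2 between the lines. Its CPM with vehicle in normoxia were 158, 172 and 184 in WT and 333, 323 and 334 in KO (0.95 ± 0.12, FDR 3.98e-07). POVPC lowered it in WT normoxia to 53.0, 64.6 and 55.9 CPM (-1.57 ± 0.13), and KO cells had 346, 336 and 318 CPM (0.015 ± 0.12, FDR 0.982), so the gap between the lines widened to 2.53 ± 0.13. Hypoxia took WT cells to 4.799, 5.38 and 6.77 CPM with vehicle (-4.92 ± 0.15) and 1.21, 1.64 and 2.42 CPM with POVPC (-4.92 ± 0.18). KO cells kept 39.7, 49.98 and 37.5 CPM with vehicle (-2.96 ± 0.13) and 29.1, 21.5 and 23.8 CPM with POVPC (-3.75 ± 0.14), every one above every WT hypoxia library. In hypoxia KO exceeded WT by 2.91 ± 0.15 with vehicle and 3.70 ± 0.18 with POVPC. POVPC lowered it in hypoxia in both lines, with log2 changes of -1.58 ± 0.20 in WT and -0.78 ± 0.13 in KO. The KO normoxia groups, which overlap each other, were the highest of the 8, and the WT hypoxia groups the lowest.

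Most markers of adventitial fibroblasts were, like Thbs2 and Postn, higher in KO cells in vehicle normoxia. Summed over 8 genes, they came to 306 to 333 CPM in WT and 941 to 1047 CPM in KO vehicle normoxia. The sums were led by different genes, Pdgfra in WT (mean 266 CPM) and Dpt in KO (mean 298 CPM). Of 7 tested, 6 were higher and 1 lower in KO (median 4.93, background 60.6%). In vehicle hypoxia the sums were 79.5 to 83.9 CPM in WT, where Lum was at 0 in all libraries, and 335 to 383 CPM in KO. None of the 8 was at 0 throughout the KO groups. Smooth muscle markers summed to 380.2 to 438 CPM in WT vehicle normoxia, 144 to 201 in KO vehicle normoxia, 77.8 to 86.8 in WT vehicle hypoxia and 70.7 to 74.9 in KO vehicle hypoxia. With POVPC in WT normoxia, where Thbs2 and Postn fell, the fibroblast sum was 546 to 592 CPM, above that with vehicle. Ly6a led it, with a mean of 400 CPM, where Pdgfra led with vehicle. The higher sum thus does not show that the markers rose together. The smooth muscle sum was 183 to 221 CPM. The part of either list in the members' differences was not tested. Endothelial markers summed to at most 4.92 CPM in any culture library.

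Tnc, the tenascin of injured vessel wall, was highest in WT vehicle normoxia, at 39.2, 34.0 and 34.2 CPM, with no overlap with any other group. KO vehicle normoxia stood at 8.56, 14.6 and 12.7 CPM (-1.58 ± 0.22, FDR 2.01e-06). POVPC brought WT cells to 9.43, 4.998 and 6.88 CPM in normoxia (-2.34 ± 0.23) and to 0.908, 1.64 and 2.27 CPM in hypoxia (-2.50 ± 0.31), the lowest group, which lay below KO POVPC hypoxia at 6.89, 3.75 and 4.98 CPM (1.60 ± 0.33). The middle groups, from KO vehicle normoxia down to KO POVPC hypoxia, overlapped each neighbour in the order of means. Hypoxia lowered Tnc in WT vehicle (-1.87 ± 0.23) and WT POVPC (-2.04 ± 0.32). In KO the values were -0.46 ± 0.24 with vehicle (FDR 0.0951) and -0.67 ± 0.25 with POVPC (FDR 0.0204), and the second lost its call without KO POVPC normoxia 3, KO POVPC hypoxia 2 or KO POVPC hypoxia 3 (FDR 0.0569 to 0.111).

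As a ratio, Sparc had the narrowest span of group means among the 8 tested members, from 2737 to 831 CPM. It had 2706, 2777 and 2728 CPM in WT vehicle normoxia and 2376, 2387 and 2096 CPM in KO, a small difference (-0.26 ± 0.0857, FDR 0.0101). It was not called when the second WT library of that comparison (FDR 0.0567) or the third KO library (FDR 0.0638) was left out. In hypoxia it fell to 1787, 1768 and 1669.7 CPM in WT vehicle (-0.65 ± 0.0860) and 955, 993 and 919.8 CPM in KO vehicle (-1.26 ± 0.0870). With POVPC in hypoxia the values were 1055, 982 and 1332 CPM in WT (-1.0 ± 0.0865 against normoxia) and 905, 748 and 841 CPM in KO (-1.30 ± 0.0870). Every normoxia library was above every hypoxia library. In hypoxia KO was lower than WT with vehicle (-0.87 ± 0.0863) and with POVPC (-0.43 ± 0.0859). With POVPC in normoxia Sparc was not called between the lines (-0.14 ± 0.0856, FDR 0.170). POVPC lowered it in WT hypoxia (-0.63 ± 0.0860) and slightly in WT normoxia (-0.29 ± 0.0857), the latter call lost without WT POVPC normoxia 1 or 2 (FDR 0.0571 and 0.0552).

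Spp1 was the member that rose under hypoxia in every setting. In normoxia it stood at 9.43, 8.90 and 7.81 CPM in WT vehicle, 7.48, 5.17 and 5.34 in KO vehicle and 5.02, 6.27 and 6.57 in KO POVPC. WT POVPC normoxia was set apart at 27.1, 30.6 and 26.7 CPM, higher than WT vehicle by 1.69 ± 0.24 (FDR 2.03e-05) and 4.74-fold higher than KO POVPC. Hypoxia brought 65.9, 59.6 and 70.8 CPM in WT vehicle (2.91 ± 0.24), 62.4, 51.8 and 56.0 in WT POVPC (1.01 ± 0.22), 37.7, 39.5 and 43.0 in KO vehicle (2.75 ± 0.25) and 53.1, 119.9 and 57.2 in KO POVPC (3.69 ± 0.25). In KO POVPC hypoxia 1 library, replicate 2, was higher than the other two summed. Without it the rise under hypoxia was 3.21 and the KO against WT difference in that condition -0.044 (FDR 0.788), against 0.43 ± 0.22 with it (FDR 0.1001). That difference was called without KO POVPC hypoxia 1 (0.59, FDR 0.0182) and without KO POVPC hypoxia 3 (0.60, FDR 0.0258). The rise with POVPC in KO hypoxia (0.94 ± 0.22, FDR 0.0200) was 0.47 without KO POVPC hypoxia 2. It lost its call without KO vehicle hypoxia 1 or KO vehicle hypoxia 2, without the 3 shallowest libraries (FDR 0.0688) and with the 2 groups fitted alone (FDR 0.298). In vehicle hypoxia KO was lower than WT (-0.71 ± 0.22, FDR 0.00905). In vehicle normoxia the difference of -0.55 ± 0.26 had an FDR of 0.0807, and was called with DESeq2 (FDR 0.0297), with scaling by library size alone, without robust estimation and with the 2 groups fitted alone.

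Of 63 called member values of comparisons that use hypoxia libraries, 54 kept their call without the 3 shallowest libraries. For Thbs2 the differences between the lines were then 8.23 (vehicle hypoxia) and 6.97 (POVPC hypoxia), and for Postn 2.95 and 3.32. Tnc was at 1.17 between the lines in POVPC hypoxia and at -2.11 for POVPC in WT hypoxia. Thbs1 under hypoxia in WT POVPC was at 1.54. For Sparc, in POVPC hypoxia the lines differed by -0.71, and POVPC in WT hypoxia came to -0.39.

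**Figure D3:**
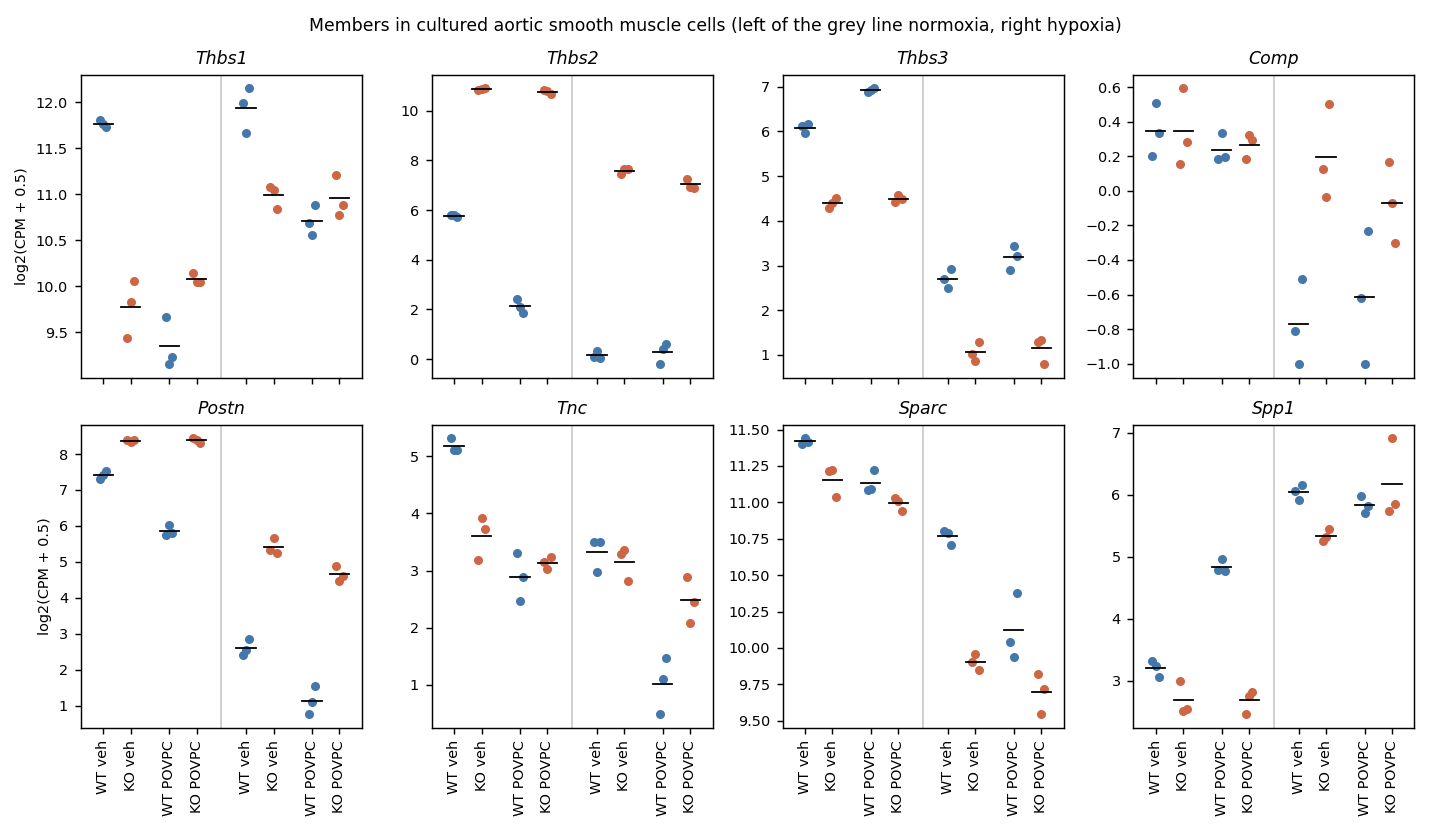
Log2(CPM + 0.5) of the 8 tested members in each of the 24 culture libraries (points, WT blue, KO orange) with the group means of these values (bars), normoxia left and hypoxia right of the grey line, on separate vertical scales. Thbs2 and Postn are higher in KO in every condition, Spp1 is higher in hypoxia throughout, and 1 KO POVPC hypoxia library of Spp1 lies above all others.

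Macrophage markers in culture summed to 53.0 to 54.5 CPM in WT vehicle normoxia and 136 to 177 in WT vehicle hypoxia, led by Cd14 and Lgals3, with 6 and 4 of 13 genes at 0 in all libraries of the group, Emr1, Trem2 and Tyrobp among them in both. In KO POVPC hypoxia they summed to 392 to 519.6 CPM, with Trem2 and Tyrobp at 0. Lgals3 alone had a mean of 390 CPM there, so that sum is mostly 1 gene. The share of reads on Rn45s, the ribosomal precursor, was 1.31 to 1.498% in WT vehicle normoxia and 3.23 to 11.1% in WT POVPC normoxia, where most members moved. The part of these differences in the members' values was not tested.

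The difference between the lines in a response was itself tested as an interaction, KO response minus WT response. For POVPC in normoxia 6 of 8 members were called (4 higher, 2 lower), against 16.2% of all tested genes. Here too the counts describe members chosen with earlier results known. Thbs2 (3.66 ± 0.18), Thbs1 (2.69 ± 0.22), Tnc (1.81 ± 0.33) and Postn (1.58 ± 0.17) were positive, and Spp1 (-1.70 ± 0.36) and Thbs3 (-0.75 ± 0.15) negative. The 4 positive members fell in WT and were not called in KO, where Tnc was at -0.53 ± 0.23 (FDR 0.662). None of the 6 interaction calls was lost when any 1 library was left out. For POVPC in hypoxia 5 of 8 were called (background 9.37%), all 5 positive: Tnc 1.77 ± 0.41, Thbs1 1.22 ± 0.22, Spp1 1.14 ± 0.31, Postn 0.80 ± 0.24 and Sparc 0.43 ± 0.12. Without the 3 shallowest libraries, with 1 library left in WT POVPC hypoxia, none of the 5 was called: the values were Tnc 1.24, Thbs1 0.97, Spp1 1.21, Postn 0.37 and Sparc 0.16. Thbs2 was called there, at -1.26 (FDR 0.0462), on 26 counts in that library. It was at -0.92 ± 0.30 (FDR 0.0524) with all libraries. With the 4 groups fitted alone 2 of the 5 remained called, Thbs1 and Tnc. The members called were 2 without WT POVPC hypoxia 2 and 3 without either of WT vehicle hypoxia 3 and KO vehicle hypoxia 3.

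For hypoxia with vehicle 6 of 8 differed between the lines (5 higher, 1 lower; background 39.1%). Thbs2 (3.17 ± 0.22), Comp (2.53 ± 0.77), Postn (1.96 ± 0.19), Tnc (1.41 ± 0.33) and Thbs1 (1.01 ± 0.22) were positive, and Sparc (-0.61 ± 0.12), whose fall was deeper in KO, negative. For hypoxia with POVPC 4 of 8 were called (3 higher, 1 lower; background 30%). These were Spp1 (2.68 ± 0.33), Tnc (1.37 ± 0.41) and Postn (1.18 ± 0.23) on the positive side and Thbs2 (-1.41 ± 0.27) on the negative. Sparc (-0.30 ± 0.12, FDR 0.0642) missed the threshold and was called under 8 alternatives, DESeq2 (FDR 0.0209), RLE size factors and halved counts among them. The sign for Thbs2 was opposite to that with vehicle, and WT POVPC cells were at 3.17 to 4.84 CPM in normoxia, before any fall in hypoxia. The Thbs2 value was -0.87 (FDR 0.184) without WT POVPC hypoxia 3, and the Spp1 value was 2.20 without KO POVPC hypoxia 2. The Tnc value lost its call without the 3 shallowest libraries (0.93 on 1 WT POVPC hypoxia library, FDR 0.172), without WT POVPC hypoxia 1 and without KO POVPC hypoxia 1.

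Other matricellular genes, taken from a list of 24 that also holds the CCN proteins and the Smoc and Spock relatives of Sparc, were mostly lower under hypoxia. In WT vehicle 1 of 15 tested were higher and 13 lower (median log2 fold change -2.24), against 68.1% of all tested genes called in either direction. In KO vehicle 1 of 15 tested were higher and 13 lower (median log2 fold change -2.31, background 65.4%). The 3 with the smallest p in WT were Matn2, a filamentous matrilin (-4.10 ± 0.11), Smoc2 (-3.66 ± 0.10) and Smoc1 (-4.37 ± 0.12). Between the lines in vehicle normoxia 7 of 15 tested were higher and 7 lower (median log2 fold change -0.010, background 60.6%). Thsd4 (4.51 ± 0.13) and Tgfbi (4.19 ± 0.17), a fasciclin-domain relative of periostin, were higher in KO and Smoc1 lower (-3.11 ± 0.11). With POVPC in WT normoxia 2 of 15 tested were higher and 9 lower (median log2 fold change -0.56, background 26.9%). Smoc2 (-2.36 ± 0.0937), Fbln5 (-1.52 ± 0.0802) and Ctgf (-2.08 ± 0.11) had the smallest p there.

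The list of collagens, fibronectin and proteoglycans that the members bind was described under hypoxia beside 68.1% of all tested genes called. In WT vehicle 1 of 14 tested were higher and 10 lower (median log2 fold change -1.38), with Col5a2 (-3.01 ± 0.0880), Dcn (-3.04 ± 0.0946) and Col1a2 (-3.61 ± 0.12) first by p. In KO vehicle 0 of 14 tested were higher and 11 lower (median log2 fold change -1.41, background 65.4%), with Col1a2 at -4.89 ± 0.12. Between the lines in vehicle normoxia the list was mixed: 4 of 14 tested were higher and 6 lower (median log2 fold change -0.25, background 60.6%). Col3a1, the fibrillar collagen type III chain, was higher in KO (2.4 ± 0.18), and Fmod lower (-2.27 ± 0.20).

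Enzymes that cleave, modify or crosslink the members included Bmp1, which processes procollagens and lysyl oxidase, and Adamts4 and Adamts12, matrix proteases of the ADAMTS family. Under hypoxia in WT vehicle 1 of 15 tested were higher and 12 lower (median log2 fold change -1.86, background 68.1%). Adamts12 (-5.36 ± 0.15), Bmp1 (-1.86 ± 0.0741) and Adamts4 (-7.11 ± 0.33) were first by p. In KO vehicle 2 of 15 tested were higher and 10 lower (median log2 fold change -0.47, background 65.4%). Between the lines in vehicle normoxia 7 of 15 tested were higher and 7 lower (median log2 fold change -0.26, background 60.6%). Cathepsin K (Ctsk, -7.71 ± 0.19) and stromelysin (Mmp3, -7.76 ± 0.22) were lower in KO. With POVPC in WT normoxia 2 of 15 tested were higher and 10 lower (median log2 fold change -0.60, background 26.9%). Among the lower were Adamts1 (-1.55 ± 0.10), Tgm2 (-1.22 ± 0.0876) and Lox (-0.93 ± 0.10).

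Receptors of the members, among them CD36, CD47, CD44 and the integrins that bind thrombospondins, tenascin and osteopontin, were split under hypoxia. In WT vehicle 6 of 23 tested were higher and 9 lower (background 68.1%). Their median log2 fold change of -0.046 was close to that of all genes (-0.032). Egfr (-2.13 ± 0.0882) and the tenascin and osteopontin receptor chain Itga8 (-7.07 ± 0.29) were lower and Tlr4 (1.64 ± 0.0763) higher. Between the lines in vehicle normoxia 4 of 23 tested were higher and 16 lower (median log2 fold change -0.51, background 60.6%). Cacna2d1 (-2.06 ± 0.0730), a thrombospondin receptor subunit, and Vcam1 (-2.06 ± 0.0752) were lower and Itga6 (2.55 ± 0.10) higher. Of the genes of TGF-beta activation and signalling, under hypoxia in WT vehicle 6 of 20 tested were higher and 12 lower (median log2 fold change -0.70), where 68.1% of all tested genes were called in either direction. Between the lines in vehicle normoxia 6 of 20 tested were higher and 13 lower (median log2 fold change -0.38, background 60.6%). Itgb8, an integrin chain that activates latent TGF-beta (-3.31 ± 0.18), and Tgfb2 (-0.93 ± 0.0865) were lower in KO and the receptor Tgfbr1 higher (1.16 ± 0.0792).

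POVPC in WT normoxia, where 26.9% of all tested genes were called, split these lists as well. Of the receptors 8 of 23 tested were higher and 9 lower (median log2 fold change -0.12), with Itga8 (-3.31 ± 0.20) lower and Cd47, the receptor of the thrombospondin C-terminus (0.84 ± 0.0655), higher. Of the bound matrix 3 of 14 tested were higher and 3 lower (median log2 fold change 0.10), and of the TGF-beta genes 3 of 20 tested were higher and 5 lower (median log2 fold change -0.11), with Tgfbr2 higher (0.91 ± 0.0782). In KO normoxia edgeR called 0 members of each of the 5 lists with POVPC (background 0.0414%). At an unadjusted p under 0.05 there were 3 of 15 other matricellular genes, 5 of 23 receptors, 2 of 15 enzymes, 3 of 14 bound matrix genes and 4 of 20 TGF-beta genes, and DESeq2 called 1 matricellular gene, Smoc1, 1 receptor, Calr, and 0 in the other 3 lists.

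Over the 24 culture libraries, the genes whose log2(CPM + 0.5) followed a member most closely were named by Pearson's r among 9771 or 9772 genes, as a description of points that share 8 groups. Thbs1 was most like Ctgf (r = 0.905), Syde2 (r = 0.902) and Obsl1 (r = 0.861). Thbs2 was most like B3gnt9-ps (r = 0.987), Zbtb5 (r = 0.982) and Pcdhga1 (r = 0.981). Thbs3 came nearest to Phyh (0.989), Pigk (0.989) and Lamb2 (0.989), and Comp, at its low counts, to Glis2 (0.906), Unkl (0.898) and Plcg1 (0.896). For Postn the nearest were Snx18 (0.988), Clca1 (0.987) and Cpt1c (0.986), and for Tnc Casc4 (0.880), Acta2 (0.877) and Omd (0.868). Sparc was nearest to Cxcl15 (0.985), Rcn1 (0.978) and Fkbp14 (0.975), and Spp1 to C1qbp (0.948), Sgta (0.945) and Mybbp1a (0.945). No member was among the nearest genes of another.

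In the arteries all 10 members were tested and Spp1 had the largest difference. By edgeR 0 of 10 members were called between KO and WT, where 0% of 14993 tested genes were called. At an unadjusted p under 0.05 there were 2 members, Spp1 and Thbs3, and 2216 of all genes, and DESeq2 called 1 member, Spp1, among 447 genes. Since the arteries are bulk tissue, fewer cells of a type and less RNA per cell cannot be told apart.

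Spp1 was at 2686, 4967, 3969 and 6335 CPM in KO 1 to 4 and at 1165, 2555, 2222 and 1189.6 CPM in WT 1 to 4. Every KO artery was above every WT artery. The log2 difference was 1.33 ± 0.34 (2.52-fold), with an FDR of 0.172 in edgeR and 0.00522 in DESeq2. Leaving out 1 artery at a time gave 1.10 to 1.56, and leaving out KO 4 and WT 1 together 0.94 (FDR 0.268). Macrophage markers went with it: 13 of 13 had a positive log2 difference (median 1.01), 13 had an unadjusted p under 0.05, edgeR called 0 and DESeq2 11, and their summed CPM ran from 7085 to 18866 in KO and 4631 to 7490.0 in WT, with no marker at 0. Their part in the Spp1 difference was not tested. Endothelial markers, positive in 7 of 8 (median 0.39), summed to 1587 to 1866 CPM in KO and 1198 to 1463 in WT, whose ranges do not overlap, while those of the macrophage sums do.

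Thbs3 and Comp were on the lower side in KO arteries. Thbs3 had 42.7, 32.4, 31.9 and 34.0 CPM in KO and 48.2, 47.6, 51.4 and 33.4 in WT, which overlap through WT 4 (-0.36 ± 0.15, FDR 0.311). Comp had 98.6, 84.7, 141 and 101 CPM in KO and 120.4, 179, 221 and 61.1 in WT (-0.45 ± 0.37, FDR 0.607). Beside Comp, a product of cartilage, the chondrocyte markers were negative in 8 of 8 tested (median -1.5), with 3 at an unadjusted p under 0.05, 0 called by edgeR and 2 by DESeq2. They summed to 78.2 to 415 CPM in KO and 197 to 1772 in WT, and no chondrocyte marker was at 0 throughout a group. Col2a1 alone led both sums, with a mean of 93.2 CPM in KO and 636 in WT. Osteoblast markers were negative in 5 of 5 tested, summing to 35.6 to 48.7 CPM in KO and 40.2 to 57.3 in WT. Bglap and Bglap2 were nearly unread in both: at 0 in the KO arteries and at most 0.320 and 0.394 CPM in a WT artery. Smooth muscle markers were negative in 12 of 12 (median -0.43), with 7 at an unadjusted p under 0.05, 0 called by edgeR and 3 by DESeq2, and summed to 5292 to 7603 CPM in KO and 7354 to 11378 in WT. The part of these markers in the 2 members' values was not tested.

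The remaining 7 members were not called, with FDRs of 0.677 to 0.990, and their groups overlapped. Thbs1 was at 789, 744, 1336 and 1482 CPM in KO and 569.6, 1138, 1158 and 657 in WT (0.30 ± 0.31, FDR 0.677), and Thbs2 at 120.1, 111, 153 and 171 and 75.8, 146, 205 and 99.0 (0.080 ± 0.30). The 34.8-fold difference in Thbs2 between the cultured lines thus had no counterpart of that size in whole arteries, where KO and WT differed 1.06-fold, and the difference between these settings was not tested. Postn was at 518, 625, 979 and 949 and 493, 909.8, 1306 and 722 CPM (-0.16 ± 0.31), and Tnc at 163, 151, 250.2 and 409.6 and 196, 283, 370.4 and 158 CPM (-0.049 ± 0.38). Sparc ran from 1204 to 1892 CPM in KO and 1023 to 2288 in WT (0.0086 ± 0.27). The genes unread in culture were read here: Thbs4 at 14.9, 9.16, 8.03 and 4.02 CPM in KO and 10.2, 6.58, 9.29 and 13.3 in WT (-0.14 ± 0.36), and Sparcl1 at 501, 328, 291 and 384 and 296, 519, 349.8 and 366 CPM (-0.027 ± 0.21). Tendon and striated muscle markers, of tissues in which Thbs4 is also made, summed to 37.5 to 71.5 and 9.42 to 21.4 CPM in KO and to 50.7 to 163 and 17.2 to 43.8 CPM in WT. Without KO 4 and WT 1 the sign was reversed for Thbs1, Thbs2, Sparc and Thbs4. The others were then at -0.33 (Thbs3), -0.53 (Comp), -0.49 (Postn), -0.54 (Tnc) and -0.15 (Sparcl1), none called.

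**Figure D4:**
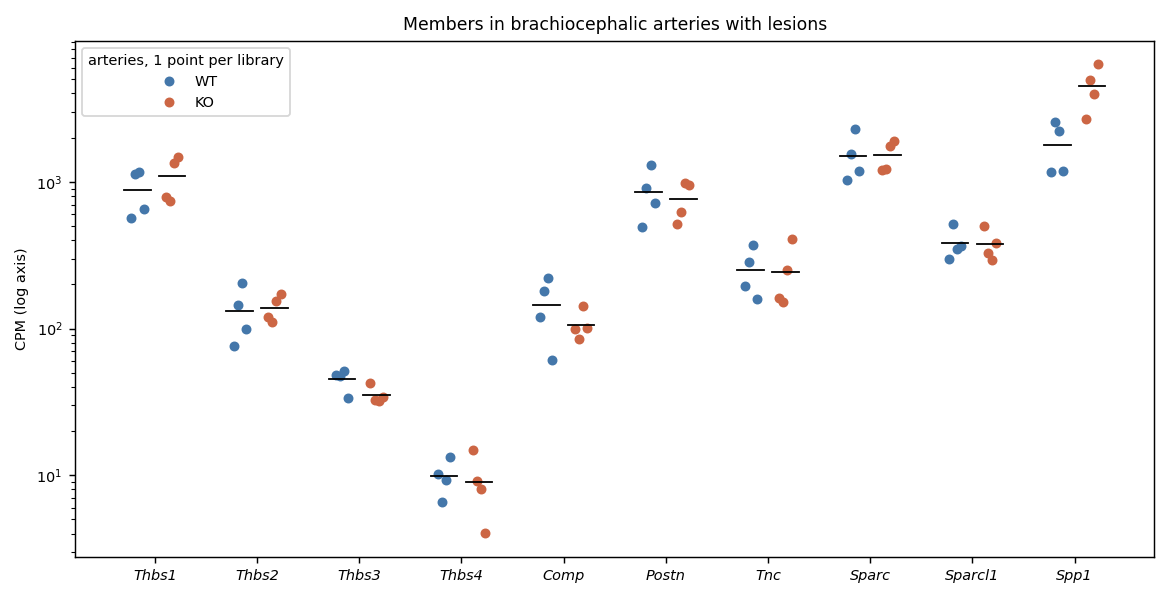
CPM on a log axis of the 10 members in the 4 WT (blue) and 4 KO (orange) arteries, 1 point a library, with bars at the group means. The Spp1 groups do not overlap, and those of the other 9 members do.

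The lists around the members gave 0 calls by edgeR in the arteries. Of the enzymes, 5 of 17 tested had an unadjusted p under 0.05 and DESeq2 called 4, with Mmp3 (1.21 ± 0.20), macrophage elastase (Mmp12, 1.14 ± 0.30) and urokinase (Plau, 0.97 ± 0.27) positive. Of the receptors, 9 of 25 had such a p and DESeq2 called 5, with Itga3 (-0.42 ± 0.0881), Ptprz1 (-0.63 ± 0.14), a tenascin receptor, and Cd36 (0.54 ± 0.14) first. Of the other matricellular genes 2 of 20 had such a p and DESeq2 called 1, Thsd4 (-0.61 ± 0.13). For the matrix that the members bind it was 0 of 13 and DESeq2 0, and for the TGF-beta genes 2 of 20 and DESeq2 0.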

How the data were processed

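Raw counts per gene were deposited as 1 table for arteries and 1 for cultures. Per the file headers, the authors made them with featureCounts 1.4.4 over exons of an mm9 annotation, with exons pooled under their gene name and no strand option, as fragments in arteries and as separate mates in cultures; the submitters' processing notes also name CASAVA, STAR, Subread and DESeq2. The tables also give each gene's exon length in bases. Here the tables were fitted apart with edgeR 4.0.16 in R 4.3.3 (limma 3.58.1): filterByExpr (minimum count 10, minimum total 15), TMM, robust quasi-likelihood tests, 2-sided, for 17 comparisons. The 24 culture libraries shared 1 model of 8 group means. CPM use TMM-scaled totals. The test was checked on simulated data. No pair of libraries of a group agreed within sampling noise.

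Members and lists were chosen with earlier results of these data known. All members are named, and up to 3 genes of a list by smallest p. The genes most like a member needed a mean of at least 5 CPM and no clone name. Replicate numbers paired the libraries only for hypoxia in KO POVPC, where same-numbered libraries deviated together (r 0.119 to 0.377, 3 pairs), a hint from the data alone. Alternatives were other scalings, filters and tools (DESeq2 1.42.0), a replicate block, halved culture counts, groups fitted alone and libraries left out. One result on the TGF-beta list is not reported here. Intervals for counts of 0 cover counting error only, with counts taken as independent.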

Additional observations from a re-analysis of the deposited data

Results flagged for a closer look

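The lines differed in a response, by the interaction test itself, for 21 member values (KO response minus WT response, log2). For POVPC in normoxia these were Thbs1 2.69, Thbs2 3.66, Thbs3 -0.75, Postn 1.58, Tnc 1.81 and Spp1 -1.70. For POVPC in hypoxia they were Thbs1 1.22, Postn 0.80, Tnc 1.77, Sparc 0.43 and Spp1 1.14, none of which was called without the 3 shallowest libraries, with 1 library left in WT POVPC hypoxia (Thbs1 0.97, Postn 0.37, Tnc 1.24, Sparc 0.16 and Spp1 1.21). For hypoxia with vehicle they were Thbs1 1.01, Thbs2 3.17, Comp 2.53, Postn 1.96, Tnc 1.41 and Sparc -0.61. For hypoxia with POVPC they were Thbs2 -1.41, Postn 1.18, Tnc 1.37 and Spp1 2.68. The Comp value rests on 0 to 6 counts a library in WT vehicle hypoxia. With POVPC, the Thbs2 call was lost without WT POVPC hypoxia 3 (-0.87, FDR 0.184). The Tnc call there was lost without WT POVPC hypoxia 1 (1.09) or KO POVPC hypoxia 1 (1.05). Each line is 1 culture, so genotype and line cannot be told apart in any of the 21 values. Of 20 sets of 4 arteries checked for a library far from the others (10 members in KO and WT), none had one.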

How the results depend on the processing

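Of 87 called member values, 73 kept direction and call under each of their 14 to 22 alternatives, 14 lost the call under at least 1, and 0 changed sign. Of 51 uncalled values, 10 gained a call under at least 1, Sparc (hypoxia response, POVPC) and Thbs2 (POVPC response, hypoxia), both genotype differences, under 8 each. The replicate block changed 0 of 138 member calls (lesion genes called 0, KO normoxia POVPC genes 5 against 6). In arteries edgeR called 0 genes, also with any 1 library left out, but DESeq2 447 genes and 1 member, no filter 11 genes, and without KO 4 and WT 1 it was 1. POVPC in WT hypoxia called 3037 genes, 1073 without the 3 shallowest libraries (1 POVPC library left, whose spread is taken from the other groups) and 1720 fitted alone. POVPC in KO normoxia called 6, and 3 with library size alone, 23 with DESeq2, 3 without robust estimation, 0 fitted alone and 1 to 310 with 1 library left out, 310 without KO vehicle normoxia 3 and 1 to 3 without each of the other 5. POVPC in KO hypoxia called 588, and 341 with library size alone, 991 with DESeq2 and 269 to 532 with 1 left out, over 1.5 times fewer without KO vehicle hypoxia 2 (the fewest), KO vehicle hypoxia 3 or KO POVPC hypoxia 3. The genotype difference in the POVPC response in hypoxia called 1358 genes and 5 members, 426 and 1 without the 3 shallowest libraries, 828 and 2 fitted alone, and 2 to 5 members with 1 left out. Apart from alternatives that test fewer samples, the cause was not tested.

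Library size alone in place of TMM moved the share of called genes that were higher from 49.1 to 37.0% (KO vs WT, vehicle normoxia), from 48.7 to 31.4% and 48.5 to 78.3% (POVPC in WT normoxia and KO hypoxia), from 16.7 to 33.3% (POVPC in KO normoxia, under 10 genes), from 48.1 to 36.4% (hypoxia, WT vehicle), and from 50.5 to 73.3%, 62.9 to 80.6% and 49.2 to 60.1% (genotype differences for POVPC in normoxia and hypoxia and for hypoxia with vehicle). The median of all genes shifted by over 0.1 in 4 of these, to -0.16, -0.13, -0.21 and 0.20 in KO vs WT vehicle normoxia, POVPC in WT normoxia, hypoxia in WT vehicle and the POVPC genotype difference in normoxia. No called member changed sign with it.

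Sign changes were all of uncalled values. With RLE size factors it was Sparc -0.0081 (KO vs WT, lesion). With library size alone it was Sparc -0.054 (KO vs WT, lesion), Comp -0.13 (KO vs WT, vehicle normoxia), Spp1 0.058 (POVPC vs vehicle, KO normoxia) and Thbs1 0.052 (POVPC vs vehicle, KO hypoxia). With a filter of 5 CPM it was Sparc -0.022 (KO vs WT, lesion). Without KO 4 and WT 1 it was Sparc -0.28 (KO vs WT, lesion), Thbs1 -0.060 (KO vs WT, lesion), Thbs2 -0.24 (KO vs WT, lesion) and Thbs4 0.12 (KO vs WT, lesion). With 1 library left out at a time, values that crossed 0 ranged as follows. For KO vs WT, lesion: Postn -0.36 to 0.11, Sparc -0.15 to 0.28, Sparcl1 -0.21 to 0.16, Thbs2 -0.12 to 0.38, Thbs4 -0.48 to 0.10 and Tnc -0.44 to 0.19. In KO vs WT, vehicle normoxia: Comp -0.21 to 0.17. For KO vs WT, POVPC normoxia: Comp -0.0085 to 0.13. In KO vs WT, POVPC hypoxia: Spp1 -0.044 to 0.60. For POVPC vs vehicle, WT hypoxia: Comp -0.10 to 2.27 and Thbs2 -0.17 to 0.66. In POVPC vs vehicle, KO normoxia: Comp -0.29 to 0.069, Postn -0.012 to 0.047 and Spp1 -0.10 to 0.18. For POVPC vs vehicle, KO hypoxia: Thbs1 -0.18 to 0.063. In genotype difference in POVPC response, normoxia: Comp -0.12 to 0.25. For genotype difference in hypoxia response, vehicle: Spp1 -0.26 to 0.011. Depth limits Comp, Thbs4 and Sparcl1 in culture, and Thbs2 in WT hypoxia. Counts were also low for Thbs3 in KO hypoxia (19 to 36 with vehicle, 28 to 47 with POVPC). In WT POVPC hypoxia Postn had 12 to 62 counts and Tnc 12 to 58.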
